A study of Mus musculus with 4 samples.

Results

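The genes described here are 40 transcripts of the cell division cycle, 18 of DNA replication (the S list) and 22 of G2 phase and mitosis (the G2M list), measured by single-cell RNA sequencing in cells from mouse colorectal tumours. They were chosen as a listed set and found by symbol, and all 40 were present among the 31053 genes of the count matrix. Both lists were read as raw counts of unique molecular identifiers (UMIs, which count captured transcript molecules) across cell types that were set apart by marker genes.

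The series holds 4 labelled samples from female C57BL/6 mice, 1 for each combination of the sorted CD45+ immune or CD45- non-immune fraction with the genotype Egfr fl/fl (the controls) or Egfr{delta}MYL. In Egfr{delta}MYL the EGF receptor gene is deleted in the myeloid lineage, and the sources used here do not name the driver of that deletion. All mice, controls included, had received an injection of the carcinogen azoxymethane (AOM, 12.5 mg/kg) and then dextran sulphate sodium (DSS) in the drinking water for 5 days per cycle, at 2.5% in the first cycles and 2% in the last one. Polyps were taken 30 days after the last DSS. Sorted suspensions were described as loaded into 1 well although each sample had its own index, and the deposited matrix pooled all cells under barcode suffixes 1 to 4, called libraries 1 to 4 below. No source used here pairs a suffix with a genotype or a sort, so values are given for cell types and for numbered libraries, with no comparison of genotypes, and with 1 sample per labelled group there is no replicate and no test.

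Cells divide by copying their DNA in S phase and then, after G2, separating the copies in mitosis. The S list holds the MCM helicase that opens the DNA, the enzymes that supply nucleotides and the factors that license and tend replication forks; the G2M list holds the mitotic cyclins and kinases, the spindle motors and the checkpoint and destruction machinery of mitosis. In the colon, crypt stem and progenitor cells divide quickly, mature goblet and absorptive cells have left the cycle, and neutrophils leave the bone marrow after their last division. Neutrophil-like cells therefore served as the background for transcripts that cells without these genes acquire from free RNA. They had the lowest median depth of the named cell types, 4098 UMIs among cells of at least 3000 UMIs. The background at greater depth was not measured. A value level with this background thus does not show that a transcript is absent.

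The matrix held 129529250 UMIs over 18026 barcodes, and 14198 cells passed the filters of at least 500 UMIs, at least 200 genes and at most 20% mitochondrial UMIs. By library, 594, 1706, 4516 and 7382 cells were kept, with medians of 3391 to 5177 UMIs. Libraries 1 and 2 held nearly all epithelium (99 and 627 of the 735 tumour-type cells) and libraries 3 and 4 nearly all lymphocytes and myeloid cells. There were 24 barcode sequences shared between libraries, on 48 barcodes of which 37 were kept. The names were set by the markers, so marker levels cannot check them. In tumour-type cells the T, B, macrophage, dendritic and neutrophil markers had medians of 0, an outcome that the gates favour. Doublet scoring marked 8 cells, 0.0564% of those kept, a share at which it cannot be taken to have worked. By the gating rule, 1230 cells that passed the gates of more than 1 lineage were left out of every named cell type. Allowed pairs kept a name: T with NK/ILC1, dendritic with plasmacytoid, epithelial with erythroid, B with plasma, and fibroblast with endothelial.

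The promoters of both lists carry short sequence elements that are textbook features of cell cycle genes: the CCAAT box bound by NF-Y and the cell cycle homology region TTTGAA in mitotic genes, and E2F sites in replication genes. RefSeq promoters on GRCm38.p6 (mm10), 250 bases before to 50 after the gene start, were matched for 35 of the 40 members (16 S and 19 G2M). Stretches of G2M promoters that hold TTTGAA near the start site are given 5′ to 3′ on the gene's strand, from Cdc20 (chr4:118437344-118437443, minus strand), Cdk1 (chr10:69352913-69353012, minus), Top2a (chr11:99024190-99024289, minus), Ube2c (chr2:164769829-164769928, plus) and Kif11 (chr19:37376322-37376381, plus). Capitals mark TTTGAA or its complement TTCAAA, and CCAAT or its complement ATTGG.
Cdc20: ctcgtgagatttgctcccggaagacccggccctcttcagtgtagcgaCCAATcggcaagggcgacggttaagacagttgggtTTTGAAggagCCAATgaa
Cdk1: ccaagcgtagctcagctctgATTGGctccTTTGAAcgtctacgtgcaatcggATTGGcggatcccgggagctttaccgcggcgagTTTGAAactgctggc
Top2a: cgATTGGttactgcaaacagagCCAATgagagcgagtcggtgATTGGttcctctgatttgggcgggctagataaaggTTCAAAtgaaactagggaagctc
Ube2c: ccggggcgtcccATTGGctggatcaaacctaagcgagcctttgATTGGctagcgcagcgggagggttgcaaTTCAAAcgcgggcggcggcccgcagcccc
Kif11: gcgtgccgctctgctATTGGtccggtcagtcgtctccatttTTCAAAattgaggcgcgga

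The S promoters shown next carry E2F letters, searched as TTTCCCGC, TTTGGCGC, TTTGCCGC and TTTCGCGC on both strands, and some also carry CCAAT. They come from Mcm6 (chr1:128359706-128359825, minus strand), Mcm5 (chr8:75109349-75109508, plus), Hells (chr19:38930910-38930989, plus) and Dtl (chr1:191575545-191575604, minus). Capitals mark the E2F letters or their complement and CCAAT or its complement. In Mcm6 and Mcm5 matches on the opposite strands overlap, which gives the longer runs of capitals.
Mcm6: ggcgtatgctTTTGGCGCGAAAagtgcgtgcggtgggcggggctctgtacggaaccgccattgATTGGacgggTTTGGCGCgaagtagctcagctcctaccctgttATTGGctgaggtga
Mcm5: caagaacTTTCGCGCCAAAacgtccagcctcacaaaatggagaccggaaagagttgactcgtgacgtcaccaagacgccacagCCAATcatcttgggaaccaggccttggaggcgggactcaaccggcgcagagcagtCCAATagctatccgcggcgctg
Hells: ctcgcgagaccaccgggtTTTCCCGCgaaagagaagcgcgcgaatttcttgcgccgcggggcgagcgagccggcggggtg
Dtl: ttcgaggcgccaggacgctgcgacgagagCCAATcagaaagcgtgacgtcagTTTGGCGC

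Across the matched promoters the letters divided the lists. TTTGAA was present on either strand in 13 of 19 G2M promoters (68.4%) and in 1 of 16 S promoters (6.25%), that of Mcm2, against 18.1% of all 27025 promoters of the same length. The E2F letters were present in 9 of 16 S promoters (56.2%) and in 1 of 19 G2M promoters (5.26%), that of Cdk1, against 2.32% of all promoters. CCAAT was in 78.9% of G2M and 75.0% of S promoters, against 37.9% of all. Both TTTGAA and CCAAT were found in 12 of the 19 G2M promoters (63.2%), against 7.12% of all. Among cell cycle genes outside the 40, TTTGAA was in 23 of 32 G2M promoters (71.9%) and the E2F letters in 4 of 20 S promoters (20.0%). Slbp and Tacc3 lie beside each other on chromosome 5. The promoters of Tyms, Tacc3, Birc5 and Nusap1 held none of the 3 motifs in this window. A match is a match of letters only and was not tested as a binding site.

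Cells with S transcripts were common in most cell types, while cells with G2M transcripts set the cell types further apart. Each cell was thinned to 3000 UMIs so that deep and shallow cells could be compared, which left 10371 cells and removed the 3827 shallower ones; intervals are exact binomial at 95% and cover counting error only. Of 657 tumour-type epithelial cells (those with Wnt target genes such as Axin2 and Notum), 63.9% (60.1 to 67.6) had at least 1 S UMI and 45.2% (41.4 to 49.1) at least 1 G2M UMI. In neutrophil-like cells, the background, the same shares were 16.3% (14.3 to 18.5) and 5.77% (4.53 to 7.24). The median depth before thinning was 14973 UMIs in the tumour-type cells used and 4098 in the 1213 neutrophil-like cells used. Without thinning the shares were 85.3% and 61.0% in tumour-type cells and 16.8% and 6.77% in neutrophil-like cells.

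Cells of the goblet and absorptive gates had lower shares of both lists than tumour-type epithelium. The absorptive gate asked for 2 of 8 markers, and 244 of the 310 kept cells of any lineage that passed it held exactly 2. The name thus does not show that these cells were mature. Of 99 goblet cells, mucus producers marked by Muc2 and its companions, 33.3% (24.2 to 43.5) had an S UMI and 28.3% (19.7 to 38.2) a G2M UMI at a median of 12997 UMIs before thinning. Of 76 absorptive cells, the fluid-absorbing lineage of the surface, 32.9% (22.5 to 44.6) had an S UMI and 28.9% (19.1 to 40.5) a G2M UMI at a median of 7507 UMIs. The intervals of goblet and absorptive cells overlapped each other on both lists, and both lay above the neutrophil-like background. That background came mostly from libraries 3 and 4. The 54 neutrophil-like cells of library 1 had an S share of 12.96% (5.37 to 24.9) and a G2M share of 7.41% (2.06 to 17.9), whose intervals overlap those of goblet cells (28.1%, 13.8 to 46.8, and 15.6%, 5.28 to 32.8) and absorptive cells (27.03%, 13.8 to 44.1, and 18.9%, 7.96 to 35.2) of that library. Library 2 held 4 such neutrophil-like cells. Over all libraries, neither goblet nor absorptive cells reached the tumour-type interval on either list. The tumour-type class rests on a Wnt target gate, and in normal crypts Wnt targets also mark stem cells, so tumour and crypt stem cells cannot be told apart by it.

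The epithelial G2M shares had different point values in libraries 1 and 2, with overlapping intervals. In tumour-type cells 52.9% (41.8 to 63.9) of 85 cells in library 1 and 43.4% (39.3 to 47.6) of 564 in library 2 had a G2M UMI, and the intervals overlapped. In goblet cells the shares were 15.6% (5.28 to 32.8) of 32 cells in library 1 and 33.8% (22.6 to 46.65) of 65 in library 2. In absorptive cells they were 18.9% (7.96 to 35.2) of 37 and 38.9% (23.1 to 56.5) of 36. For both types the intervals of libraries 1 and 2 overlapped. The tumour-type and absorptive intervals lay apart in library 1 and overlapped in library 2. Leaving out library 2 put the goblet share at 17.6%, and leaving out library 1 put it at 34.3%. The 164 epithelial cells deep enough for thinning that passed no subset gate had a G2M share of 44.5% and an S share of 54.3%, close to the tumour-type values.

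**Figure D1:**
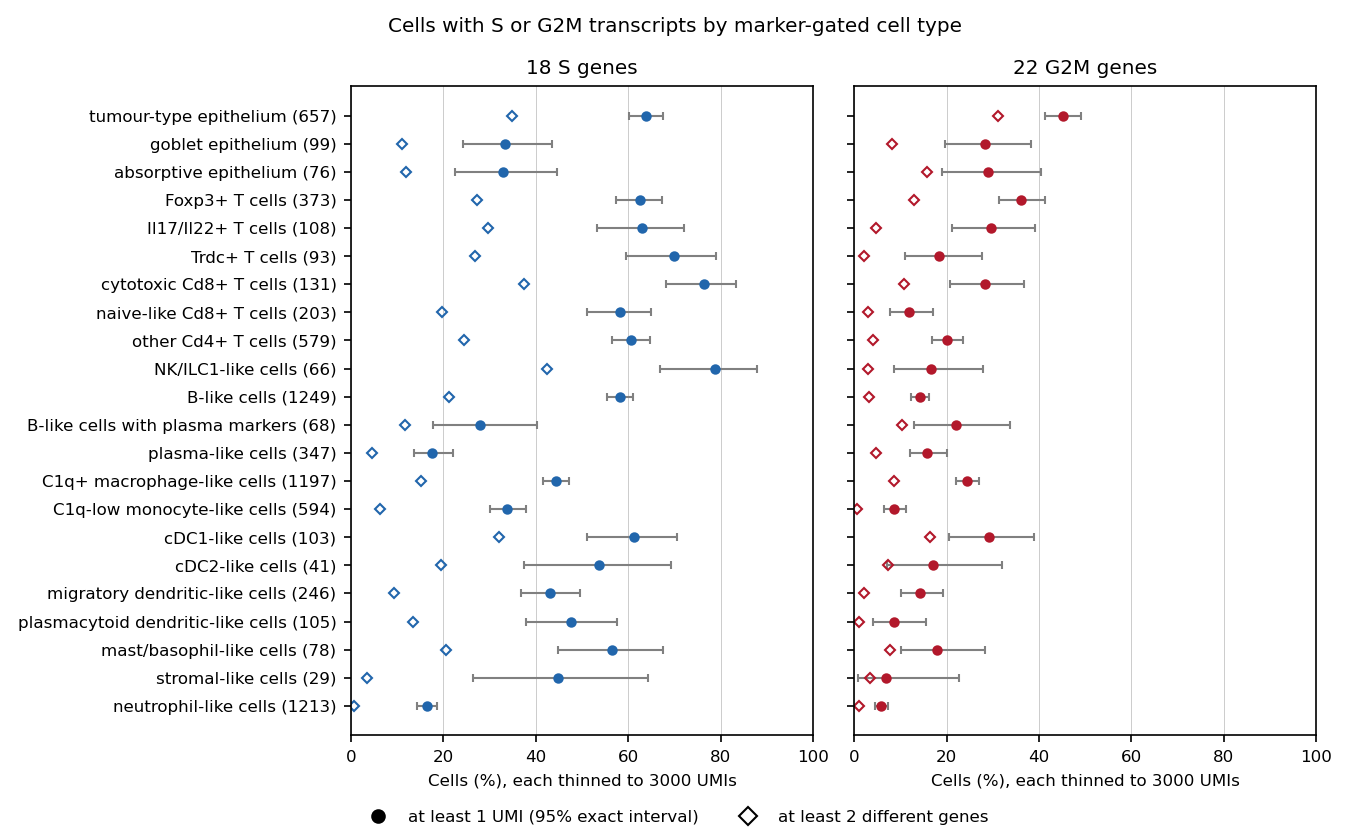
Share of cells (percent, horizontal axis) with transcripts of the S list and of the G2M list in 22 cell types after thinning each cell to 3000 UMIs. Circles show cells with at least 1 UMI, with exact 95% binomial intervals for counting error, and diamonds show cells with at least 2 different genes of the list; tumour-type epithelium has the highest G2M share at 45.2%, while neutrophil-like cells lie at 5.77%.

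Among T cells the S share was high in every subset and the G2M share ran from 11.8% to 36.2%. Foxp3+ cells, the regulatory subset, had the highest G2M share, 36.2% (31.3 to 41.3) of 373 cells at a median of 5029 UMIs, with an S share of 62.5% (57.3 to 67.4). Cells with Il17 or Il22 transcripts had a G2M share of 29.6% (21.2 to 39.2) of 108 and cytotoxic Cd8+ cells 28.2% (20.7 to 36.8) of 131, and these intervals overlapped with that of Foxp3+ cells. Other Cd4+ cells had 20.0% (16.9 to 23.5) of 579, Trdc+ cells (the gamma-delta receptor gene) 18.3% (11.02 to 27.7) of 93 and naive-like Cd8+ cells 11.8% (7.72 to 17.1) of 203. The intervals of naive-like Cd8+ and other Cd4+ cells overlapped by a narrow margin. Among these T cell subsets the S share was highest in cytotoxic Cd8+ cells at 76.3% (68.1 to 83.3). The intervals of the S shares of Foxp3+, Il17/Il22+, Trdc+, naive-like and other Cd4+ cells overlapped, at 58.1% to 69.9%.

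NK/ILC1-like cells held S transcripts often and G2M transcripts seldom. They had an S UMI in 78.8% (66.98 to 87.9) of 66 cells, the highest point value of all cell types, and a G2M UMI in 16.7% (8.63 to 27.9), at a median of 5352 UMIs. No cell among them had at least 5 G2M genes, which at this number allows a share of up to 4.55%. Slbp, which binds the stem-loop of histone mRNA, was seen in 47.0% of the thinned NK/ILC1-like cells and Mcm6 in 21.2%. Their UMIs of the G2M list per UMI of the S list came to 0.150, against 0.156 in plasmacytoid dendritic-like, 0.214 in stromal-like, 0.226 in C1q-low and 0.342 in other Cd4+ cells, 1.28 in Foxp3+ and 1.54 in tumour-type cells.

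T cells of library 4 had G2M transcripts more often than those of library 3. Over all T-like cells the G2M share was 14.9% (12.9 to 17.1) of 1134 cells in library 3 and 30.2% (27.4 to 33.1) of 1027 in library 4. With at least 2 G2M genes the shares were 3.88% and 8.67%, and the S shares were 57.9% and 67.2%. Foxp3+ cells went the same way, with 26.7% (20.1 to 34.2) of 161 cells in library 3 and 43.6% (36.8 to 50.6) of 211 in library 4, and so did other Cd4+ cells, with 14.1% of 319 and 27.4% of 259. B-like cells had 14.0% and 14.4%, C1q+ macrophage-like cells 24.0% and 24.8%, and neutrophil-like cells 5.41% and 5.83%, with no such gap between the libraries. Genotype, sort, animal and loading cannot be told apart for these libraries.

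B-like cells held S transcripts often and G2M transcripts seldom, and plasma-like cells held few of either. Of 1249 B-like cells 58.2% (55.4 to 61.0) had an S UMI and 14.2% (12.3 to 16.2) a G2M UMI, at a median of 4290 UMIs. Of 347 plasma-like cells 17.6% (13.7 to 22) had an S UMI, an interval that overlaps the neutrophil-like background, and 15.9% (12.2 to 20.1) a G2M UMI, which lies above it. That G2M share was 8.42% (3.71 to 15.9) in library 3, which overlaps the background, and 19.0% in library 4; without library 4 it was 8.0%, without Mki67 9.22%, and with another seed of the thinning 12.1%. Plasma-like cells were far deeper, with a median of 32698 UMIs before thinning, and immunoglobulin genes made up 68.2% of their UMIs against 1.28% in B-like cells, so a fixed draw of 3000 UMIs holds fewer of all other transcripts. Without thinning 76.1% of them had an S UMI and 55.1% a G2M UMI. The 68 B-like cells that also passed the plasma marker gate had a G2M share of 22.1% (12.9 to 33.8) and an S share of 27.9% (17.7 to 40.2).

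Within the macrophages and monocytes, G2M transcripts went with C1q. Of 1197 C1q+ macrophage-like cells 44.4% (41.5 to 47.2) had an S UMI and 24.5% (22.1 to 27.0) a G2M UMI, at a median of 13320 UMIs. Of 594 C1q-low monocyte-like cells, marked by Ccr2, Ly6c2 and similar genes, 33.8% (30.0 to 37.8) had an S UMI and 8.59% (6.46 to 11.1) a G2M UMI, at a median of 11246 UMIs. The G2M interval of the C1q-low cells overlapped the neutrophil-like background, and that of the C1q+ cells did not. Without thinning the C1q-low G2M share was 24.0%, against 6.77% in the shallower neutrophil-like cells. With at least 2 G2M genes the shares were 8.52% and 0.673%. The order was the same within libraries, with 24.0% and 8.89% in library 3 and 24.8% and 8.65% in library 4.

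Dendritic cells split likewise for the G2M list. Of 103 cDC1-like cells, the Xcr1 and Clec9a lineage, 61.2% (51.1 to 70.6) had an S UMI and 29.1% (20.6 to 38.9) a G2M UMI at a median of 22559 UMIs. Of 246 migratory dendritic-like cells 43.1% (36.8 to 49.5) had an S UMI and 14.2% (10.1 to 19.2) a G2M UMI at a median of 10757 UMIs. The S shares depended on the random draw of the thinning, which the intervals do not cover: with another seed they were 49.5% in cDC1-like and 41.1% in migratory cells, and 34.1% in cDC2-like cells. The 41 cDC2-like cells, at 53.7% (37.4 to 69.3) and 17.1% (7.15 to 32.1), could not be placed between them at this number. Plasmacytoid dendritic-like cells had an S UMI in 47.6% of 105 cells, above background, and a G2M UMI in 8.57% (4.00 to 15.7), which overlaps it. Mast and basophil-like cells had 56.4% (44.7 to 67.6) and 17.9% (10.2 to 28.3) of 78 cells. Only 29 stromal-like cells were deep enough, with 44.8% and 6.90%.

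A stricter count of at least 2 different genes left the order of the G2M shares among the named cell types led by tumour-type epithelium, at 31.1%. Next came cDC1-like cells at 16.5%, absorptive epithelium at 15.8%, Foxp3+ cells at 12.9% and cytotoxic Cd8+ cells at 10.7%, and their intervals overlapped. The absorptive value was 8.11% for library 1 and 22.2% for library 2. Outside the named types, the 164 epithelial cells that passed no subset gate had 33.5% (26.4 to 41.3), whose interval overlapped that of tumour-type cells. Next to these, neutrophil-like cells had 0.989%, naive-like Cd8+ cells 2.96%, B-like cells 3.12% and NK/ILC1-like cells 3.03%. With at least 2 S genes, NK/ILC1-like cells at 42.4%, cytotoxic Cd8+ cells at 37.4%, tumour-type cells at 34.9% and cDC1-like cells at 32.0% led, against 0.660% in neutrophil-like cells.

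Cells rich in cell cycle transcripts were a minority in every cell type. Of the 10371 thinned cells, 517 had at least 5 genes of either list. Of these, 149 were tumour-type cells, 28.8% of all 517 and 22.7% (19.5 to 26.1) of the tumour-type class. The share was 15.5% (9.15 to 24.0) in cDC1-like cells, 10.5% in absorptive cells, 9.16% in cytotoxic Cd8+ cells, 7.24% in Foxp3+ cells, 4.85% in C1q+ macrophage-like cells and 2.08% in B-like cells. Outside the named types, 45 of the 164 epithelial cells that passed no subset gate were rich, a larger part than the 149 of 657 tumour-type cells. The absorptive share rests on 8 cells, and was 5.0% without library 2 and 15.4% without library 1. A single neutrophil-like cell (0.0824%) and none of 66 NK/ILC1-like cells reached it. The highest number of different G2M genes in 1 thinned cell was 18, in a B-like cell, followed by 17 in tumour-type, Foxp3+ and cytotoxic Cd8+ cells.

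These rich cells had more UMIs in all in most cell types, to different degrees. The median UMIs before thinning of Foxp3+ cells with at least 5 members were 15505, against 4826 in the other Foxp3+ cells, a ratio of 3.21. The ratio was 3.26 in B-like cells, 2.73 in other Cd4+ cells and 2.42 in cytotoxic Cd8+ cells. It was 2.75 in Il17/Il22+ cells, 2.60 in absorptive cells, 1.84 in mast and basophil-like cells, 1.61 in C1q+ macrophage-like cells, 1.24 in cDC1-like cells, 1.15 in tumour-type and plasma-like cells, 1.06 in B-like cells with plasma markers and 0.683 in goblet cells, on 5 to 149 rich cells per type. Median doublet scores of rich and other cells were 0.0700 and 0.0287 in Foxp3+ cells and 0.0670 and 0.0627 in tumour-type cells. The part of larger cells and of doublets in these depths was not tested.

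With all cell types pooled, most cells with G2M genes also held S genes, while most cells with S genes held no G2M pair. Over all thinned cells, 1803 had at least 2 S genes, 766 at least 2 G2M genes and 453 both, so 59.1% of the cells with G2M genes also had S genes, against 14.1% of the cells without. In tumour-type cells the figures were 63.2% and 22.1%, in Foxp3+ cells 66.7% and 21.5%, in B-like cells 61.5% and 20.0%, in C1q+ macrophage-like cells 45.1% and 12.2%, and in cDC1-like cells 76.5% and 23.3%. The pooled order did not hold in every type. Among cells with S genes, 56.3% of tumour-type cells also had G2M genes. The share was 55.6% in absorptive cells, 68.8% in plasma-like cells and 75.0% in B-like cells with plasma markers, on 8 to 16 cells with S genes. Among cells with G2M genes, fewer than 50% also had S genes in C1q+ cells and in absorptive cells (41.7%). Tumour-type cells divided into 15.2% with S genes only, 19.6% with both and 11.4% with G2M genes only, by the same count of 2 genes. Foxp3+ cells had 18.8%, 8.58% and 4.29%, and cytotoxic Cd8+ cells 29.0%, 8.40% and 2.29%. In absorptive cells G2M only was the largest class, at 9.21% against 5.26% with S only, on 76 cells. No NK/ILC1-like and no neutrophil-like cell had 2 genes of both lists.

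**Figure D2:**
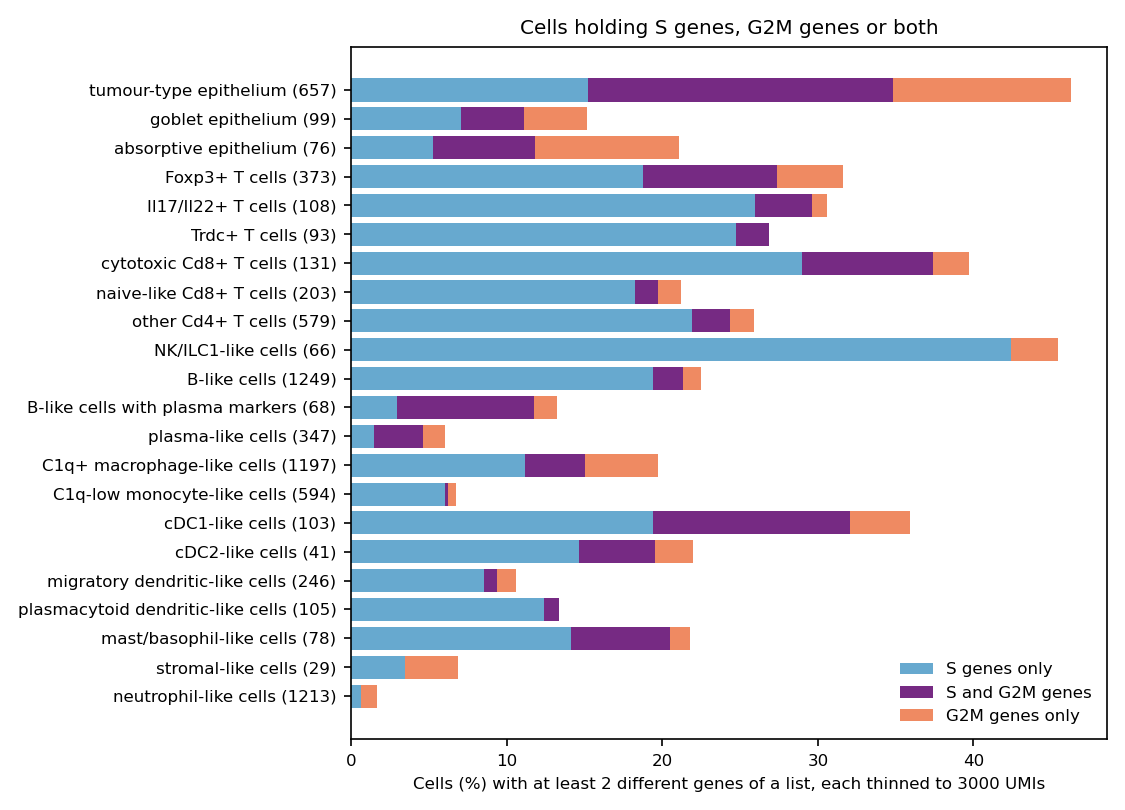
Percent of thinned cells (horizontal axis) in each cell type with at least 2 genes of the S list only, of both lists, or of the G2M list only, as stacked bars starting at 0. Tumour-type epithelium has the widest segment of cells with both, at 19.6%, and NK/ILC1-like cells have none with both.

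The members differed in how far they marked such cells. Among the 96 thinned cells with Plk1, the kinase that drives mitotic entry and spindle assembly, 94.8% (88.3 to 98.3) also held at least 2 other members. The share was 93.5% for Hmmr (a spindle-associated protein), 92.6% for Ccna2 (cyclin A), 91.6% for Cdc20 (an activator of the anaphase-promoting complex) and 90.0% for Bub1 (a checkpoint kinase). Among S genes it was highest for Rrm2, a subunit of ribonucleotide reductase, at 86.6% (81.3 to 90.8), then Dtl at 78.6% and Uhrf1 at 78.3%. At the other end, 26.1% (24.2 to 28.1) of the 1942 cells with Slbp held 2 other members and 43.9% held no other, and Cdt1, the licensing factor, had 34.2%, Mcm4 39.0% and Pcna 39.8%. Of the G2M genes, Mki67 (58.6%) and Kif20b (59.5%) had the lowest shares. In cells without the gene, the share with 2 members was 16.8% for Slbp and 23.5% for Plk1.

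**Figure D3:**
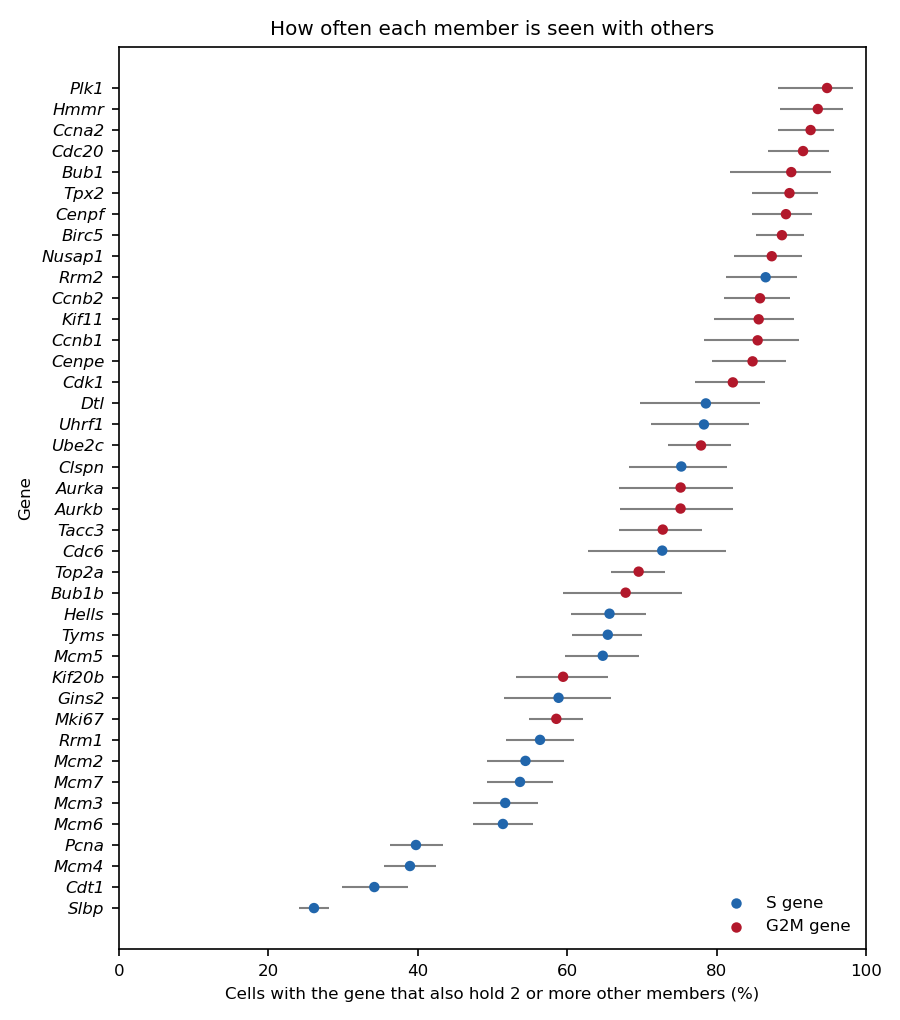
Percent of thinned cells with a given gene that also held at least 2 of the other members (horizontal axis), for all 40 members, with exact 95% binomial intervals. Plk1 lies highest at 94.8% and Slbp lowest at 26.1%.

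Levels of the members with the most UMIs follow as CPM, a gene's UMIs scaled by all UMIs of the cells, from sums over a cell type. Intervals are exact 95% Poisson. The 3′ assay counts transcripts without a length term, and levels are compared between cell types only. Mki67, the Ki-67 antigen that coats mitotic chromosomes, had 8237 UMIs in 1722 cells. Its level was 233 CPM (215 to 252) in Foxp3+ cells, 132 in cytotoxic Cd8+ cells, 127 in B-like cells with plasma markers, 118 (111 to 124) in tumour-type cells, 96.0 in absorptive cells and 35.8 in goblet cells. Il17/Il22+ cells had 81.4, cDC1-like cells 78.6, C1q+ macrophage-like cells 69.4, Trdc+ cells 56.9, B-like cells 54.8, plasma-like cells 49.7, cDC2-like cells 47.7 and mast and basophil-like cells 47.2. Other Cd4+ cells had 36.2, migratory dendritic-like cells 31.6, naive-like Cd8+ cells 20.7, C1q-low cells 16.0, plasmacytoid cells 13.1, NK/ILC1-like cells 7.49 and stromal-like cells 4.08, against 13.4 (11.04 to 16.1) in neutrophil-like cells. Mki67 thus stood clear of the background in most cell types, and the intervals of naive-like Cd8+, C1q-low, plasmacytoid, NK/ILC1-like and stromal-like cells overlapped it.

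Top2a, the topoisomerase that untangles sister chromatids, followed a similar order with a steeper fall. Its level was 287 CPM (267 to 308) in Foxp3+ cells, 200 (173 to 230) in cytotoxic Cd8+ cells, 126 (119 to 132) in tumour-type cells, 112 in Il17/Il22+ cells, 109 in cDC1-like cells and 99.0 in B-like cells with plasma markers. Trdc+ cells had 86.2 CPM of Top2a, mast and basophil-like cells 71.5, cDC2-like cells 66.8, other Cd4+ cells 65.0, C1q+ macrophage-like cells 53.4, B-like cells 52.2, absorptive cells 44.8, naive-like Cd8+ cells 42.1 and plasma-like cells 33.6. NK/ILC1-like cells had 17.48, goblet cells 16.1, plasmacytoid cells 14.9, migratory dendritic-like cells 8.97 and C1q-low cells 2.79, against 3.35 in neutrophil-like cells and 0 in stromal-like cells. C1q-low cells did not exceed the background.

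Ube2c, the ubiquitin-conjugating enzyme of the anaphase-promoting complex, and Birc5, survivin of the chromosomal passenger complex, were highest in Foxp3+ cells and tumour-type epithelium. Ube2c had 161 CPM (146 to 177) in Foxp3+ cells, 138 (131 to 145) in tumour-type cells, 93.3 (76.0 to 113) in absorptive cells, 85.2 in B-like cells with plasma markers, 75.8 in cytotoxic Cd8+ cells, 56.3 in cDC1-like cells, 43.6 in naive-like Cd8+ cells, 39.5 in B-like cells, 32.0 in C1q+ macrophage-like cells and 30.8 in plasma-like cells. It lay at 6.36 to 27.3 CPM in other Cd4+, Il17/Il22+, goblet, mast and basophil-like, Trdc+ and cDC2-like cells, at 2.20 in C1q-low cells and 2.39 in neutrophil-like cells, and at 0 to 1 UMI in migratory, plasmacytoid, stromal-like and NK/ILC1-like cells. Birc5 had 125 CPM (119 to 132) in tumour-type cells, 109 (97.0 to 122) in Foxp3+ cells, 87.8 (71.1 to 107) in absorptive cells, 81.8 in cytotoxic Cd8+ cells, 42.0 in cDC1-like cells, 40.01 in mast and basophil-like cells, 39.3 in B-like cells with plasma markers, 39.1 in C1q+ macrophage-like cells and 38.6 in naive-like Cd8+ cells. It lay at 12.5 to 33.1 CPM in B-like, goblet, Il17/Il22+, cDC2-like, other Cd4+, Trdc+, plasmacytoid and plasma-like cells, at 3.59 in migratory dendritic-like cells, 2.65 in C1q-low cells and 1.32 in neutrophil-like cells, and at 0 in NK/ILC1-like and stromal-like cells. The intervals of tumour-type and Foxp3+ cells overlapped for Birc5 and did not for Ube2c.

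Cenpf, a kinetochore protein, had 68.8 CPM in Foxp3+ cells, 62.7 in tumour-type cells, 51.5 in cytotoxic Cd8+ cells, 34.7 in B-like cells with plasma markers, 33.8 in absorptive cells, 27.9 in naive-like Cd8+ cells and 21.7 in B-like cells. Cenpf lay at 9.12 to 14.9 CPM in C1q+ macrophage-like, cDC1-like, goblet, Il17/Il22+, Trdc+, other Cd4+ and plasma-like cells and at 1.79 to 4.77 in cDC2-like, mast and basophil-like, stromal-like, plasmacytoid and migratory cells. It had 0.882 CPM in C1q-low cells, 1.20 in neutrophil-like cells and 0 in NK/ILC1-like cells. Like Top2a and Ube2c, it did not exceed the background in C1q-low cells.

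Of the abundant S members, Slbp and Pcna were present in every cell type. Slbp had 8055 UMIs in 4493 cells, with 180 CPM (154 to 208) in cytotoxic Cd8+ cells, 170 (132 to 215) in NK/ILC1-like cells, 155 in Trdc+, 153 in Foxp3+, 110 in mast and basophil-like, 106 in Il17/Il22+, 102 in B-like and 98.6 in other Cd4+ cells. Tumour-type cells had 85.9 CPM of Slbp (80.6 to 91.6), absorptive cells 43.9 and goblet cells 39.4. It was at 79.1 in cDC1-like, 77.4 in stromal-like, 75.7 in naive-like Cd8+, 75.6 in plasmacytoid, 65.2 in cDC2-like, 54.2 in migratory, 52.8 in C1q-low and 52.7 in C1q+ cells. Plasma-like cells had 21.96 and B-like cells with plasma markers 34.3, below or level with the 37.1 CPM (33.1 to 41.5) of neutrophil-like cells. The goblet and absorptive intervals of Slbp also overlapped the neutrophil-like one, and all other cell types lay above it.

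Pcna, the sliding clamp of DNA polymerase, ran from 62.6 CPM (48.0 to 80.3) in cytotoxic Cd8+ cells, 49.8 (45.8 to 54.2) in tumour-type and 49.6 in cDC1-like cells to 18.7 in migratory dendritic-like, 18.5 in goblet, 18.3 in absorptive and 8.06 (6.49 to 9.89) in plasma-like cells. Its level was 47.2 CPM in mast and basophil-like, 46.9 in Il17/Il22+, 44.0 in other Cd4+, 43.9 in plasmacytoid, 43.4 in Foxp3+, 41.3 in cDC2-like, 38.6 in B-like, 34.3 in naive-like Cd8+, 31.0 in C1q+, 29.3 in Trdc+, 27.5 in NK/ILC1-like, 25.1 in C1q-low, 15.9 in B-like cells with plasma markers and 12.2 in stromal-like cells, against 8.14 in neutrophil-like cells. Pcna was above the background in C1q-low cells, where the intervals of Mki67, Top2a, Ube2c and Birc5 overlapped it.

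The helicase subunits Mcm4, Mcm3 and Mcm6 ride together in 1 ring. Mcm4 was highest in cytotoxic Cd8+ cells at 77.8 CPM, with 60.6 in other Cd4+, 60.4 in Il17/Il22+, 58.6 in mast and basophil-like, 56.1 in Foxp3+, 49.98 in Trdc+, 47.7 in cDC2-like, 46.9 in tumour-type, 45.7 in naive-like Cd8+, 45.0 in NK/ILC1-like and 42.4 in cDC1-like cells. Mcm4 then had 29.4 in B-like, 28.5 in stromal-like, 24.0 in C1q+, 22.8 in C1q-low, 15.9 in plasmacytoid, 14.9 in goblet, 13.7 in absorptive and 11.5 in migratory cells, and 4.55 to 4.96 in neutrophil-like cells and both plasma classes. Mcm3 was highest in Il17/Il22+ cells at 70.3 CPM, with 46.2 in tumour-type, 36.4 in C1q+, 10.1 in absorptive, 8.08 in C1q-low, 7.49 in NK/ILC1-like, 5.97 in goblet and 1.08 in neutrophil-like cells. Mcm3 had 54.1 to 54.5 CPM in cytotoxic Cd8+, Foxp3+, mast and basophil-like and cDC2-like cells and 53.6 in cDC1-like cells, and it lay between 4.87 and 32.8 in the remaining types. Mcm6 was highest in NK/ILC1-like cells at 94.9 CPM (67.2 to 130.3) and cytotoxic Cd8+ cells at 92.9 (74.9 to 114.0), with 66.5 in Foxp3+, 45.1 (41.2 to 49.2) in tumour-type, 20.5 in C1q+, 20.1 in absorptive, 9.55 in goblet, 3.67 in C1q-low and 1.44 in neutrophil-like cells. Mcm6 lay between 12.5 and 58.6 CPM in the other types. Between C1q+ and C1q-low cells, Mcm3 and Mcm6 thus differed and Mcm4 hardly did.

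**Figure D4:**
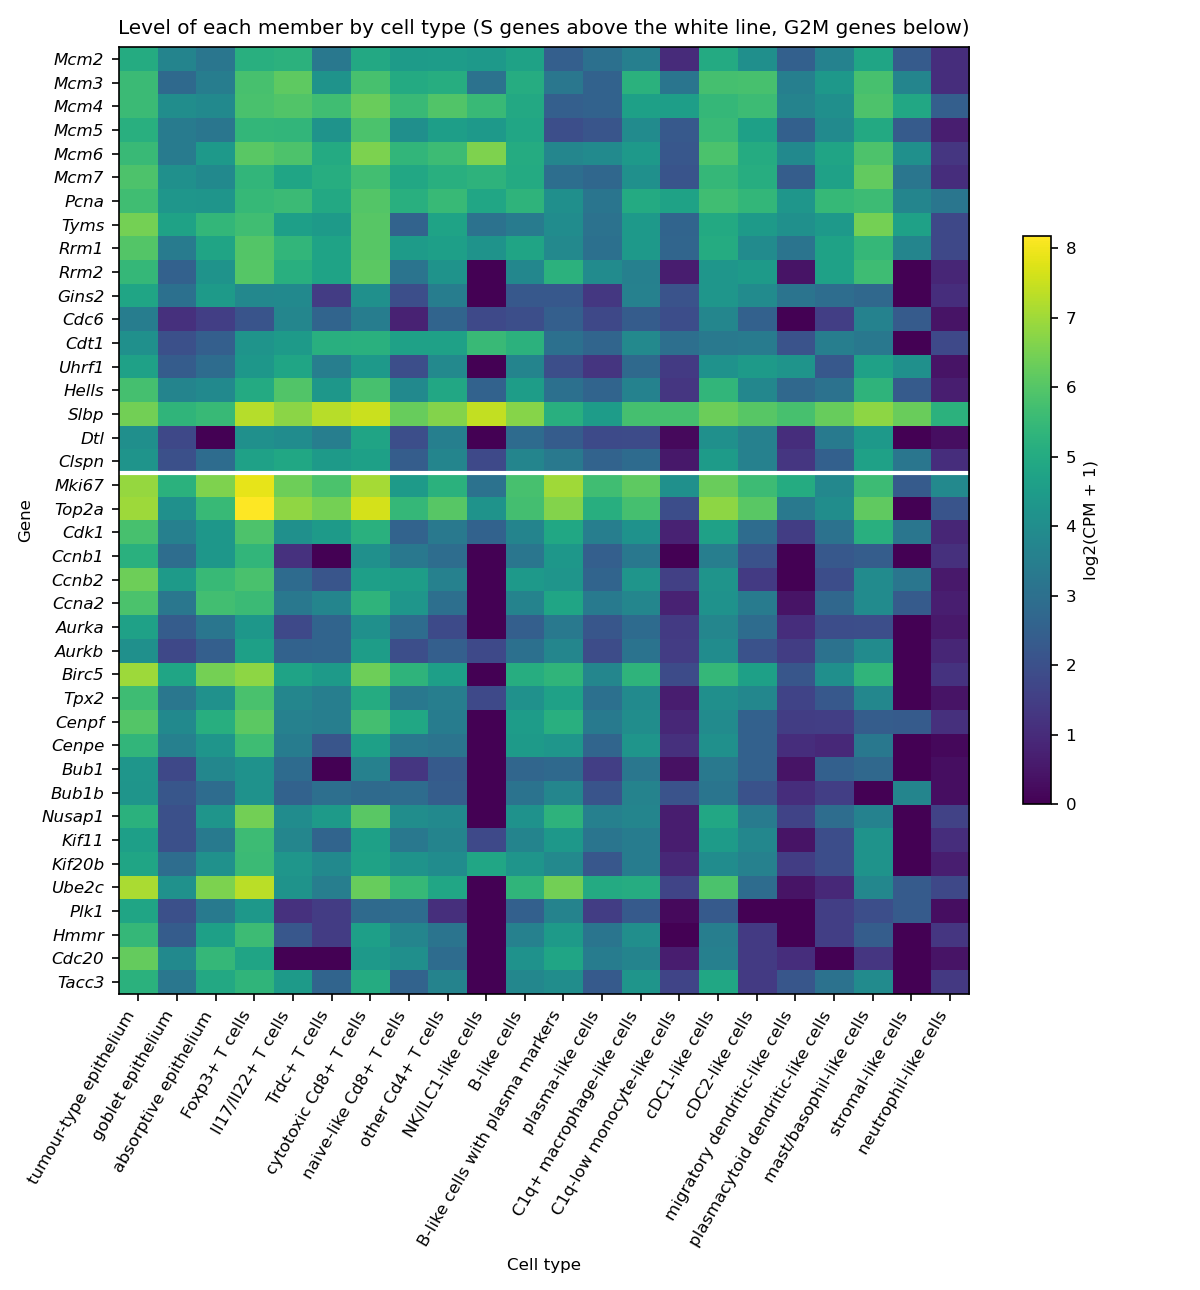
Heatmap of log2 (CPM + 1) for the 40 members (S list above, G2M list below) in 22 cell types, from summed UMIs; brighter fields are higher, on the scale of the colour bar. The G2M block is bright in tumour-type epithelium and in Foxp3+ and cytotoxic Cd8+ T cells and dark in NK/ILC1-like, C1q-low, plasmacytoid, stromal-like and neutrophil-like cells, while Slbp is present in every column.

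By the cell type of highest summed level among the 22, the lists parted. Of the 22 G2M members, 14 were highest in Foxp3+ cells and 8 in tumour-type epithelium. Besides those above, Foxp3+ cells led for Cdk1, the mitotic kinase, at 57.6 CPM, for cyclin B1 (Ccnb1) at 40.4, for Aurkb of the passenger complex at 23.9, for the spindle factors Tpx2 at 56.1, Nusap1 at 84.8, Hmmr at 47.1 and Tacc3 at 39.2, and for the motors Cenpe at 48.2, Kif11 at 47.5 and Kif20b at 46.7. Tumour-type epithelium led for cyclin B2 (Ccnb2) at 80.7 CPM, cyclin A2 (Ccna2) at 57.0, Cdc20 at 75.3, Plk1 at 27.1, the kinase Aurka at 24.3, and the checkpoint kinases Bub1 at 18.6 and Bub1b at 17.96. Of the 18 S members, 7 were highest in cytotoxic Cd8+ cells, among them Mcm5 at 56.6 CPM, the ribonucleotide reductase subunits Rrm1 at 64.6 and Rrm2 at 67.7, and Dtl, an adaptor of the ligase that removes Cdt1, at 26.3. Il17/Il22+ cells led for 5, among them Mcm2 at 37.0, Uhrf1, which carries DNA methylation through replication, at 27.1, the helicase-like Hells at 60.4 and the fork checkpoint protein Clspn at 28.4. NK/ILC1-like cells led for Mcm6 and for Cdt1 at 45.0, tumour-type cells for thymidylate synthase (Tyms) at 87.2 and the helicase partner Gins2 at 26.8, cDC1-like cells for the loading factor Cdc6 at 12.5 and mast and basophil-like cells for Mcm7 at 72.9. Some leads were near ties. Tyms had 87.17 CPM in mast and basophil-like cells against 87.20, Mcm6 92.9 in cytotoxic Cd8+ cells against 94.9, and Cdk1 54.7 in tumour-type cells against 57.6. Further narrow leads included Cdc6, with 12.33 in Il17/Il22+ cells (10 UMIs) against 12.50. In Foxp3+ cells Mcm2 had 34.4 against 37.0, Rrm1 62.0 against 64.6 and Bub1b 16.8 against 17.96. Most of these leads are given without intervals, so a narrow one does not set 1 cell type above the next. Others were wider, such as Cdc20 at 75.3 against 42.05 in absorptive cells.

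The lead of Foxp3+ cells did not hold when each cell counted alike; a sum gives deep cells more weight. Summed over cells of at least 3000 UMIs only, the counts were still 14 in Foxp3+ and 8 in tumour-type cells. Counted instead as UMIs per cell after thinning, 13 G2M members were highest in tumour-type epithelium and 2 in Foxp3+ cells; 3 were highest in B-like cells with plasma markers, 2 in absorptive, 1 in cytotoxic Cd8+ and 1 in NK/ILC1-like cells. Ube2c then had 0.387 UMIs per 3000 in tumour-type and 0.177 in Foxp3+ cells, Birc5 0.292 and 0.113, Ccnb2 0.218 and 0.0643, and Cdc20 0.183 and 0.0429. Mki67 (0.326 and 0.330) differed little between these cells, and Top2a (0.370 and 0.437) was higher in Foxp3+ cells. In all, the G2M list came to 3.16 UMIs per 3000 in tumour-type and 1.91 in Foxp3+ cells, and the S list to 2.04 and 1.49. For the S list the lead spread over 7 cell types, with 4 members each in cDC1-like and tumour-type cells.

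Between tumour-type and absorptive epithelium, S members differed more than G2M members. At the rule of a 2-fold difference on CPM + 1 with at least 10 UMIs in the higher class, 16 of 18 S and 9 of 22 G2M members were higher in tumour-type cells and none lower, where 30.2% of all 12932 genes tested were higher and 9.01% lower. The median log2 ratio was 1.67 for the S list, 0.87 for the G2M list and 0.51 for all genes. Mcm3 was at 46.2 against 10.1 CPM (log2 ratio 2.09), Mcm7 at 57.9 against 13.7 (2.00), and Dtl at 15.6 CPM against no UMI, at least 5.69-fold higher with 3 UMIs over the absorptive class as the floor. Gins2 (26.8 against 21.0, log2 ratio 0.34), Mki67 (118 against 96.0, 0.29) and Ccna2 (57.0 against 50.3, 0.18) differed little. Within library 1, 16 S and 20 G2M members were higher (31.1% of all genes tested there), and within library 2, 11 S and 1 G2M (33.1%), so the G2M difference from absorptive cells was present in library 1 only, on 57 absorptive cells. Without library 1 the members higher came to 13 of 40, and without library 2 to 37, against 25 in all.

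Goblet cells stood further from tumour-type epithelium. All 18 S and all 22 G2M members were at least 2-fold lower in goblet cells, where 24.2% of all 12948 genes tested were higher in tumour-type cells by that rule and 7.73% lower. The medians were 2.08 and 2.31, against 0.42 for all genes. Nusap1 (35.8 against 2.98 CPM, log2 ratio 3.21), Hmmr (42.3 against 4.18, 3.07), Ube2c (138 against 16.7, 2.97) and Rrm2 (42.5 against 4.78, 2.91) differed most, and Slbp (1.11) and, of the G2M list, Mki67 (1.69) least. Within library 1 the count was 39 of 40 and within library 2 it was 40.

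In T cells, Foxp3+ and cytotoxic Cd8+ cells were both set against the same naive-like Cd8+ cells, so their values share that side. In Foxp3+ cells 10 S and 21 G2M members were higher and none lower, where 22.9% of 9709 genes tested were higher and 4.60% lower. Mki67 had a log2 ratio of 3.43, Cdk1 (57.6 against 5.00 CPM) 3.29 and Tyms (50.1 against 5.00) 3.09, while Cdt1 (17.9 against 24.3) had -0.42, and Cdc20 at 0.70 was the G2M member below the 2-fold line. In cytotoxic Cd8+ cells 12 S and 13 G2M members were higher and none lower, where 15.2% of 8362 genes were higher and 3.89% lower. There Tyms had 3.45, Rrm2 2.95 and Mki67 2.62, while Ccnb2 (23.2 against 22.1) had 0.07. Of the 206 naive-like cells 190 were in library 3 and 15 in library 4. Within library 3 the members higher were 31 of 39 tested for Foxp3+ cells and 11 of 24 for cytotoxic cells, where 20.5% and 7.68% of all genes were higher. Within library 4 they were 7 of 39 and 8 of 37, where 28.4% and 20.5% of all genes were higher, with 4 and 7 members lower and no G2M member higher in either. Without library 3 the members higher came to 4 and 10. Of the 14 naive-like cells of library 4 deep enough for thinning, 3 had a G2M UMI and 1 of them held 14 G2M genes. Their G2M share of 21.4% (4.66 to 50.8) lay below the 43.6% of Foxp3+ and 29.9% of cytotoxic cells there, with overlapping intervals. The library 4 counts thus turn on few cells, and the counts of G2M members higher in T cells rest on the naive-like cells of library 3.

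C1q+ macrophage-like cells had every G2M member above C1q-low cells. The rule was met by 13 of 18 S and 22 of 22 G2M members, and none was lower, where 20.2% of all 12149 genes tested were higher in C1q+ cells and 5.59% lower. The G2M median was 2.99, or 2.90 with the 2 members at 0 in C1q-low cells held at the floor, against 1.72 for the S list and 0.40 for all genes. Top2a (53.4 against 2.79 CPM) had a log2 ratio of 3.84, Birc5 3.46 and Cdk1 (16.8 against 0.735) 3.36. Hmmr at 15.3 CPM and Ccnb1 at 8.57 CPM had no UMI in C1q-low cells, and were at least 34.7-fold and at least 19.4-fold higher. Slbp (52.7 against 52.8, log2 ratio -0.00) and Mcm4 (0.07) were level, while Rrm2 reached 2.90. The count was 35 within library 3 and 35 within library 4.

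Among dendritic cells, cDC1-like cells exceeded migratory cells in 15 S and 21 G2M members, all 21 G2M members with enough UMIs, and fell below them in none, where 22.1% of 9656 genes tested were higher and 16.5% lower. The medians were 2.12 for S and 2.95 for G2M, or 2.68 with the 4 members at 0 held at the floor, against 0.17 for all genes. Ube2c was at 56.3 CPM (46.88 to 67) against 1 UMI, 0.359 CPM (0.00908 to 2.00). Ccnb2 (17.9 CPM) and Cdc6 (12.5 CPM) had no UMI in migratory cells, so they were at least 16.6-fold and at least 11.6-fold higher. Top2a had 3.47, Clspn 3.20 and Mcm5 3.02, while Uhrf1, at -0.05, was level. In the 41 cDC2-like cells 14 S and 4 G2M members had enough UMIs. Of these 8 and 2 were higher than in the same migratory cells, and none was lower, where 13.9% of 8839 genes were higher and 17.7% lower: Mcm7 (33.4 against 4.31, log2 ratio 2.70), Top2a (66.8 against 8.97, 2.77) and Birc5 (23.9 against 3.59, 2.44) were among them. Within libraries 3 and 4 the counts were 26 of 29 tested and 34 of 38 for cDC1-like cells, where 22.5% and 23.1% of all genes were higher. For cDC2-like cells they were 3 of 11, on 14 cells, and 10 of 14, where 12% and 12.3% of all genes were higher.

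On totals over all genes, B-like cells exceeded plasma-like cells in 14 S and 10 G2M members, 24 of 40. That is near the background, since 65.6% of all 10991 genes tested were higher in B-like cells and 6.01% lower, with a median log2 ratio of 1.40. With the 393 immunoglobulin genes left out of the totals, 17.1% of all genes were higher in B-like cells and 18.4% lower, 4 S and no G2M members were higher, and 3 S and 7 G2M members were at least 2-fold lower. The list medians moved from 1.83 to 0.35 for S and from 0.85 to -0.57 for G2M, and the median of all genes from 1.40 to 0.04, so the direction of the G2M list turns with the total it is divided by. On all totals Mcm5 had 2.68, Cdt1 2.58 and Kif20b 2.04, while Mki67 (54.8 against 49.7 CPM) had 0.14 and Rrm2 -0.17. The count was 31 of 40 within library 3, where 70.2% of all genes were higher, and 19 of 40 within library 4, where 65.4% were.

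**Figure D5:**
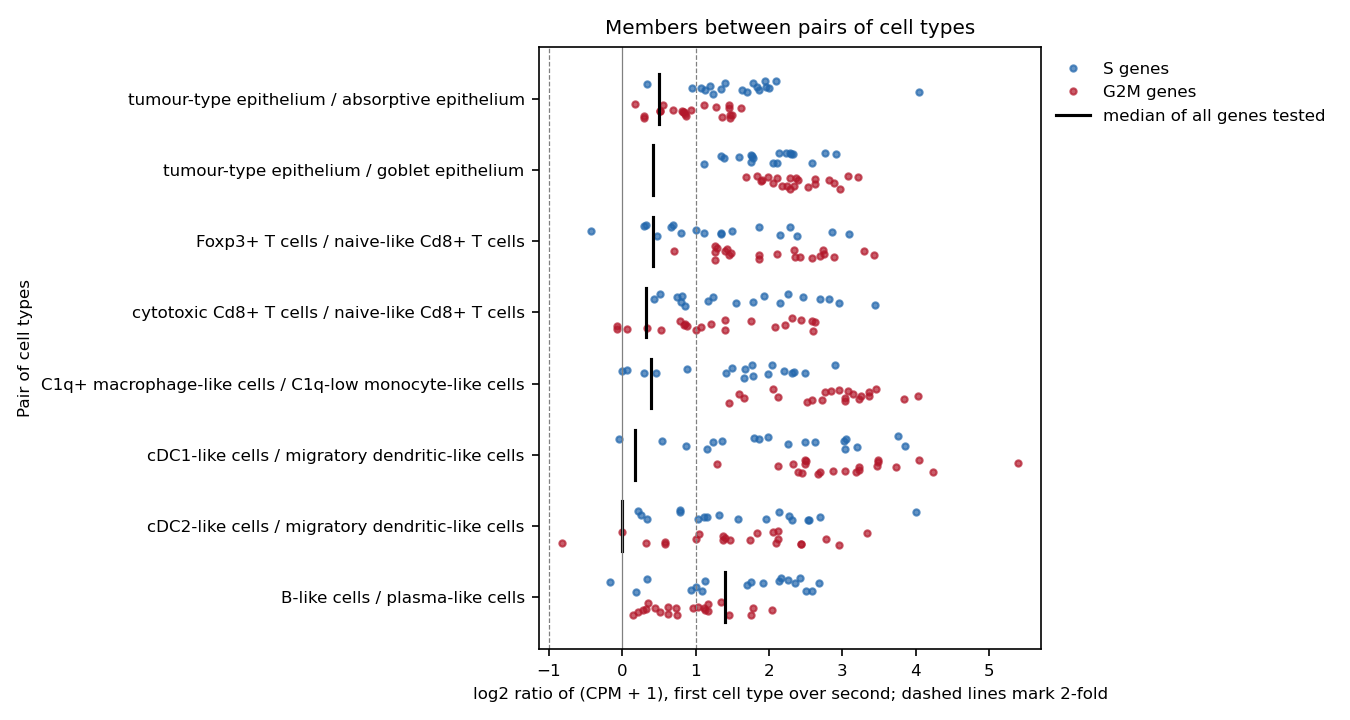
Log2 ratio of CPM + 1 (horizontal axis) of each member for 8 pairs of cell types, S and G2M lists in separate colours, with the median of all genes tested as a black bar and dashed lines at 2-fold. The G2M points lie far right of the black bar for C1q+ against C1q-low cells (median 2.99) and cDC1-like against migratory cells (2.95), and left of it for B-like against plasma-like cells (0.85 against 1.40).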

How the data were processed

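Single-cell RNA was captured with a 3′ droplet kit from sorted cells of 4 labelled samples and deposited as 1 matrix. Per the submitters' processing notes, Cell Ranger 3.0.2 and mm10 were used; further settings are not given in the sources used here. The values the authors deposited are raw UMI counts per gene and barcode, and barcode sequences were not paired with samples by any source used here.

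Cells with at least 500 UMIs, 200 genes and at most 20% mitochondrial UMIs were kept, and named by the number of lineage and subset markers with at least 1 UMI (1 to 5 markers asked, by gate). An epithelial or dendritic cell passing several subset gates went to the gate with the largest share of its markers, if it led by 25%, and otherwise stayed unnamed. T cells passing more than 1 of the Foxp3, Il17/Il22, Cd8 and Trdc gates stayed unnamed. Macrophages passing the C1q gate were called C1q+ whatever their monocyte markers. The 40 members, the marker lists and the other gene lists were chosen with earlier results of these data known, and the number of markers asked was set after the data had been opened. Values are printed for the 5 members of each list with the most UMIs in every cell type, for other members by their highest cell type, and for the 3 genes with most UMIs of the other lists; members named in the pairs were picked after their values were seen.

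Shares used hypergeometric thinning to 3000 UMIs (seed 11); levels are CPM of summed counts. Pairs of cell types were compared as log2 ratios of CPM + 1, called at 2-fold with at least 10 UMIs in the higher class. Intervals (95%, exact binomial and exact Poisson) cover counting error only, and a fold against 0 UMIs uses a floor of 3 UMIs over the class. There are no replicates, so no p-value was computed. Alternatives covered thinning depth and seed, gate strictness, doublet scores, mitochondrial limit, pseudocount, minimum count and each library left out; library alone, equal weight per cell, sums over deep cells, immunoglobulin-free totals and the share with 5 members were added after seeing the data. The steps were tested on simulated data. Doublets were scored with Scrublet in scanpy 1.11.5; Python 3.11.15, numpy 2.4.6, scipy 1.17.1, pandas 2.3.3 and matplotlib 3.10.9 were used. Kept cells per library numbered 594, 1706, 4516 and 7382.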

Additional observations from a re-analysis of the deposited data

Results flagged for a closer look

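A signal of G2M members appeared in cells outside the compared types. The 63 erythroid-like cells, in which haemoglobin genes made up 87.9% of UMIs and Alas2 was seen in 55 cells, had 161.5 CPM of Ube2c (133.7 to 193.4, from 118 UMIs) and 57.47 CPM of Nusap1 (41.42 to 77.69, from 42 UMIs), against 2.39 CPM of Ube2c in neutrophil-like cells. Library 1 held 107 of these Ube2c UMIs in 28 of 37 cells and library 2 held 11 in 9 of 21 cells. Nusap1 had 29 UMIs in library 1 and 13 in library 2. In the same cells 24 of the 40 members had no UMI, and the S list came to 21 UMIs against 177 for the G2M list. Mki67 had 6.84 CPM there and Birc5 none, so the remaining G2M members did not share the level of Ube2c.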

How the results depend on the processing

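With 1 sample per group and no replicate, every value rests on counting error and on libraries of unknown identity, and shares depend on depth. No paired analysis was possible because the barcode suffixes carry no replicate number and no source used here ties them to samples. Series of 6 values run over tumour-type, goblet, absorptive, Foxp3+, B-like and C1q+ cells. Thinned to 1000 UMIs, the S shares were 34.6, 12.8, 13.4, 31.2, 27.1 and 20.1% and the G2M shares 29.7, 8.0, 11.8, 16.5, 6.35 and 12.8%. With at least 2 genes they were 34.9, 11.1, 11.8, 27.3, 21.3 and 15% and 31.1, 8.08, 15.8, 12.9, 3.12 and 8.52%. Without thinning the S shares that moved were 85.3% (tumour-type), 56.0% (goblet), 75.1% (Foxp3+), 69.2% (B-like) and 77.3% (C1q+), and the G2M shares 61.0% (tumour-type), 42.0% (Foxp3+), 17.3% (B-like) and 49.0% (C1q+). Without Slbp the S shares were 58.6% (tumour-type), 49.1% (Foxp3+), 47.0% (B-like) and 36.1% (C1q+), and without Mki67 the G2M shares were 30.6% (Foxp3+) and 18.6% (C1q+). Another seed, stricter gates, a 10% mitochondrial limit and removal of the 625 highest doublet scores moved none of these 12 shares beyond its interval, but the seed moved 3 others: S in cDC1-like (61.2 to 49.5%) and cDC2-like cells (53.7 to 34.1%) and G2M in plasma-like cells (15.9 to 12.1%). Stricter gates put the share of cells with at least 5 members at 0 in naive-like, C1q-low, cDC2-like and migratory cells. Leaving out each library in turn gave S shares of 62.8 to 71.0, 29.4 to 35.8, 30.0 to 38.5, 58.0 to 65.6, 57.6 to 59.7 and 40.4 to 45.6%, and G2M shares of 44.1 to 55.9, 17.6 to 34.3, 20.0 to 38.5, 26.5 to 43.4, 14.1 to 14.6 and 23.5 to 24.6%. For the counts of members higher, leaving out each library gave 13 to 37 (tumour-type against absorptive, 25 in all), 39 to 40 (against goblet, 40), 4 to 31 (Foxp3+ against naive-like, 31), 10 to 25 (cytotoxic, 25), 35 to 35 (C1q+, 35), 27 to 36 (cDC1-like, 36), 3 to 10 (cDC2-like, 10) and 19 to 31 (B-like against plasma-like, 24). Adding 10 CPM gave 12 (tumour-type against absorptive), 16 (C1q+) and 11 (B-like). No minimum of UMIs gave 30 for cDC2-like cells. Thinning before the sum, which leaves fewer UMIs, gave 12 (cytotoxic), 11 (cDC1-like) and 1 (cDC2-like). Within a library the counts that moved were 12 (tumour-type against absorptive, library 2), 11 and 8 (cytotoxic, libraries 3 and 4), 3 (cDC2-like, library 3) and 7 (Foxp3+, library 4). Leaving immunoglobulin genes out of the totals gave 4 for B-like against plasma-like cells. Other causes of these shifts were not tested.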

Other observations

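Cell cycle genes outside the 40 members were often higher in the same cell types. Of 30 other S genes, 23 were at least 2-fold higher in tumour-type than in absorptive cells and 23 than in goblet cells, and of 39 other G2M genes 18 and 33, where 30.2% and 24.2% of all genes tested were higher. In C1q+ against C1q-low cells the counts were 23 and 27, and in cDC1-like against migratory dendritic-like cells 25 and 27, where 20.2% and 22.1% of all genes were higher. Dut, which clears dUTP from the nucleotide pool, had 201.0 CPM in cytotoxic Cd8+ cells, 181 in Il17/Il22+ cells and 2.15 in neutrophil-like cells, while Nasp, a histone chaperone, was highest in tumour-type cells at 133 CPM and Rfc2, a clamp loader subunit, in mast and basophil-like cells at 262 CPM. Hmgb2, a chromatin protein listed with the G2M genes, had 1195 CPM in Foxp3+ cells and also 583 in neutrophil-like cells, so its level there was far from 0. Tubb4b, a tubulin, had 480 CPM in absorptive and 478 in tumour-type cells, and Anp32e, a histone chaperone, 229 CPM in plasmacytoid and 176 in Foxp3+ cells.

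The G1 cyclins and kinases act before S phase. Among the 10, 4 passed 2-fold in tumour-type over absorptive cells and 5 over goblet cells. By the same rule 30.2% and 24.2% of all genes tested were higher, so the count against absorptive cells is near that share. Cdk4, partner of the D cyclins, had 350 CPM in tumour-type, 71.6 in goblet and 57.6 in absorptive cells. Ccnd1 had 317 CPM in plasmacytoid, 254 in tumour-type, 227 in cDC2-like and 169 in cDC1-like cells, and 0 to 4.04 in the T cell subsets. Ccnd2 was highest in migratory dendritic-like cells at 711 CPM, which were low in G2M members, followed by Foxp3+ cells at 407 CPM, and C1q-low cells had 34.0 CPM.

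Among 14 inhibitors and quiescence genes, 3 passed 2-fold upwards and 1 downwards in tumour-type against absorptive cells, and 4 upwards and none downwards against goblet cells. Of all genes tested, 30.2% were higher and 9.01% lower against absorptive cells, and 24.2% and 7.73% against goblet cells. The counts were near these shares. In C1q+ against C1q-low cells 2 were higher and 3 lower, where 20.2% of all genes were higher and 5.59% lower. In cDC1-like against migratory dendritic-like cells 3 were higher and 5 lower, where 22.1% of all genes were higher and 16.5% lower. Cdkn1a, the p21 inhibitor of cyclin-dependent kinases, had 876 CPM in C1q-low cells, 329 in C1q+ cells, 586 in migratory dendritic-like cells and 7.39 in B-like cells. Btg1, an antiproliferative gene, had 3310 CPM in neutrophil-like, 2172 in C1q-low and 10.8 in plasma-like cells, and Btg2 had 1517 CPM in neutrophil-like and 729 in NK/ILC1-like cells.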
